A study of Homo sapiens with 4 samples.

Results

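The CCN family of secreted proteins was followed in H1 cells, a human embryonic stem cell line, at day 2 of a hematopoietic differentiation with or without IWP2. Its members were the rows of the expression table with the symbols CTGF, CYR61, NOV, WISP1, WISP2 and WISP3, which made 6 genes of 58365 rows, each with 1 row. The family was picked because CTGF was among the largest increases under IWP2, so the differences of the members between the groups are given as a description, with no test. All cells were grown for 2 days in Custom mTeSR1 medium with activin A and BMP4, the factors that start mesoderm commitment, and received either the solvent DMSO (2 libraries) or IWP2 (2 libraries). IWP2 blocks Porcupine, the enzyme that attaches the lipid that Wnt proteins need to be secreted, and its dose is not given in the sources used here. Nothing states that the libraries came from separate cultures, so p-values measure the spread between these libraries, which may be technical. The values were FPKM, fragments scaled to transcript length and to the mapped fragments of the library.

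CCN proteins are matricellular: they sit in the extracellular matrix and act on cells through integrins, heparan sulfate proteoglycans and LRP co-receptors. Most are built from the same modules, which resemble an IGF-binding protein, von Willebrand factor type C and thrombospondin type 1 and end in a cystine knot, and WISP2 lacks the last of them. CTGF (also called CCN2) and CYR61 (CCN1) are induced quickly by serum, tension and TGF-β and are standard targets of YAP and TAZ, the co-activators that the Hippo pathway restrains and that bind DNA through TEAD factors, and of the actin-sensing factor SRF with its MRTF co-activators. WISP1 (CCN4) was first found as a gene induced by Wnt1, and NOV is CCN3.

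The 6 genes lay on 4 chromosomes. In GRCh38, the build that the intervals of the table matched, the protein-coding gene CTGF (ENSG00000118523.5) lay at chr6:131948176-131951373 on the minus strand, with 1 transcript of 2339 bases in 5 exons in GENCODE 29. CYR61 (ENSG00000142871.16) lay at chr1:85580761-85583962 on the plus strand, and its longest transcript had 2290 bases, also in 5 exons. The RefSeq promoter table (GRCh38.p14) held 2 of the 6 members, CTGF and WISP3. Their 250 bases before the RefSeq start are shown because one is the member with the highest level under IWP2 and the other a member near 0, and both carry GGAATG, the core that TEAD factors bind. Capitals mark GGAATG, searched on both strands. The CTGF bases are the minus strand of chr6:131951373-131951622 and the WISP3 bases the plus strand of chr6:112053854-112054103.
CTGF: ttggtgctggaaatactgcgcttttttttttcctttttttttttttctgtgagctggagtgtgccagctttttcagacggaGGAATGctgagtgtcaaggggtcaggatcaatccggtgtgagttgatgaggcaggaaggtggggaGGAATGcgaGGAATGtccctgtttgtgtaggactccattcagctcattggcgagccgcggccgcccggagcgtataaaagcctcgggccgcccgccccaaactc
WISP3: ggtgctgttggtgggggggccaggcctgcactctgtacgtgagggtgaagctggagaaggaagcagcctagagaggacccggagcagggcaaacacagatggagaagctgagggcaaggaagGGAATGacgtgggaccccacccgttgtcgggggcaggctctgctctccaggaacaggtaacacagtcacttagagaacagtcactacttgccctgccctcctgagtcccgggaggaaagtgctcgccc
The CTGF window held 3 copies of GGAATG, which began 169, 104 and 95 bases before the start, all on the strand shown. The WISP3 window held 1 copy, 128 bases before the start. Of 27305 promoter windows of this length, 11.9% held at least 1 copy and 0.0952% held 3 or more. A TATAAA box began 32 bases before the CTGF start, and 11.1% of the windows held 1. The AP-1 motif TGANTCA, the TCF/LEF core CTTTGA and the CArG box of SRF had no match in either window, against 6.60%, 11.4% and 1.14% of all windows. These motifs do not overlap in the 2 windows, and a match in letters is not a measured binding site.

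The 2 members with a measurable level were both higher in the IWP2 libraries. CTGF was at 15.7 and 10.03 FPKM in the DMSO libraries and at 220 and 244 FPKM in the IWP2 libraries. The group means were 12.9 ± 4.04 and 232 ± 16.8 FPKM (SD, n = 2 each), a ratio of 18.0. The 2 groups were far apart, since the lower IWP2 library was 14.0 times the higher DMSO library and the widest pair of libraries gave 24.4. On the log2(FPKM + 1) scale, which is used for all differences here and understates the change of low genes, CTGF differed by 4.10 ± 0.21 (SE of the fit across all genes). CTGF stood at place 3 of 14022 genes by size of increase, and leaving out each library in turn gave differences from 3.80 to 4.40.

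CYR61 was at 20.7 and 13.5 FPKM with DMSO and at 136 and 143 FPKM with IWP2. Its means were 17.1 ± 5.12 and 139.9 ± 4.93 FPKM (SD, n = 2 each), a ratio of 8.19, and the difference was 2.99 ± 0.20 on the log2 scale. The groups did not overlap, and the closest libraries still differed by 6.59 times. CYR61 stood at place 12 by increase, and without each library in turn the difference ranged from 2.70 to 3.28.

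**Figure D1:**
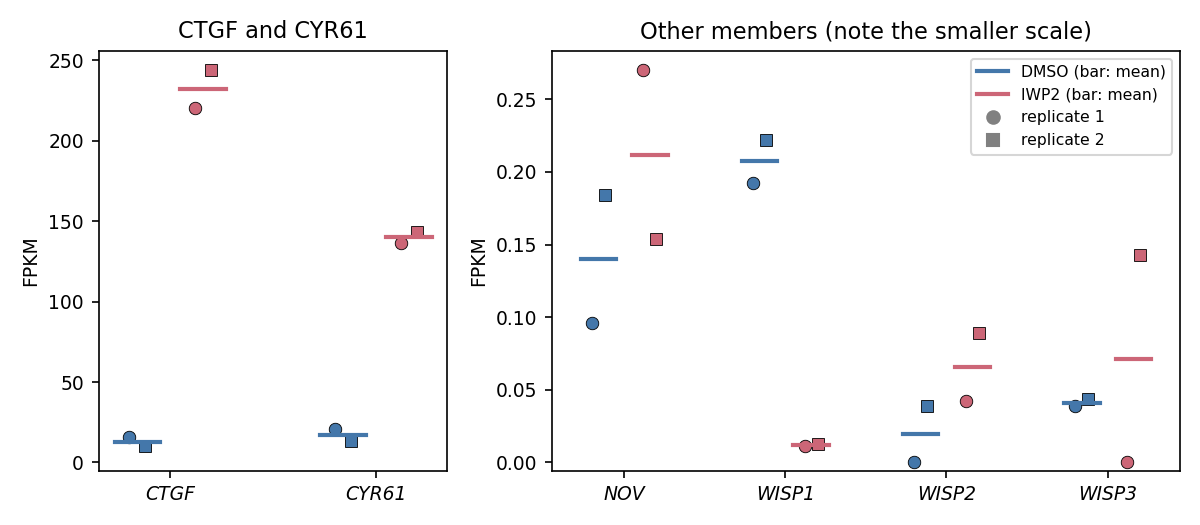
FPKM of the 6 CCN members in each library, with DMSO in blue and IWP2 in red, circles for replicate 1, squares for replicate 2 and bars for the mean of 2. CTGF and CYR61 lie between 10.03 and 20.7 FPKM with DMSO and between 136 and 244 FPKM with IWP2, while the right panel, on a smaller scale, shows the other 4 members at or under 0.270 FPKM.

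The order of these 2 genes differed between the groups. Since FPKM is per length, their levels can be compared: CTGF was 0.761 and 0.745 times CYR61 in the DMSO libraries and 1.62 and 1.70 times CYR61 in the IWP2 libraries. The ratio moved little within a group, whereas the levels themselves did move between the DMSO libraries. CTGF was 1.57 times and CYR61 1.54 times higher in DMSO replicate 1 than in replicate 2, against 1.11 and 1.05 times between the IWP2 libraries. Among the genes with a mean of 1 FPKM or more, CTGF was above 61.1% and 49.2% of them in the DMSO libraries and above 97.6% and 97.7% in the IWP2 libraries. CYR61 was above 68.5% and 57.0% with DMSO and above 95.8% of them in both IWP2 libraries. Both genes thus ranked mid-range with DMSO and near the top with IWP2.

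CTGF and CYR61 made up nearly all of the family's expression. Their share of the summed FPKM of the 6 members ran from 98.0% to 99.9% across the libraries. The sum of the family was 36.8 and 24.0 FPKM with DMSO and 357 and 388 FPKM with IWP2, and the other 4 genes together gave between 0.323 and 0.488 FPKM in any library.

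Those 4 members did not reach the mean of 1 FPKM that was asked of a gene before it was tested, and their values rest on few fragments. The lowest values in the table fall in steps that fit whole fragments, from which depths of about 20300000 to 25300000 fragments per library were estimated. WISP1 was at 0.192 and 0.222 FPKM with DMSO and at 0.0110 and 0.0128 FPKM with IWP2. Its groups did not overlap, with both IWP2 libraries lower. At the length of its longest transcript these values came to 21.4 and 22.2 fragments against 1.4 and 1.4. At its shortest they came to 1.5 and 1.3 against 0.1 and 0.1, so the counts at the longest are an upper bound. The fragments at the longest, rounded in each library and then pooled, came to 43 and 2, a ratio of 0.042. The rounding lowered it, as the ratio of the mean FPKM was 0.0575. The exact (Clopper-Pearson) 95% interval of the rounded ratio was 0.0050 to 0.163, which covers counting error only. This interval rests on the longest transcript and is no test of the treatment.

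NOV was at 0.0962 and 0.184 FPKM with DMSO and at 0.270 and 0.154 FPKM with IWP2, and the 2 groups overlapped. WISP2 was listed at 0 and at 0.0391 FPKM with DMSO and at 0.0420 and 0.0889 FPKM with IWP2, so that the groups did not overlap but nearly met. WISP3 was at 0.0390 and 0.0434 FPKM with DMSO and was listed at 0 and at 0.143 FPKM with IWP2, where the IWP2 libraries spanned those of DMSO. None of these 3 came to more than 15.4 fragments in a library at its longest transcript, so differences between the groups were not detectable at this depth. At the longest transcripts, the intervals of their fragment ratios were 0.790 to 3.49 for NOV, 0.732 to 35.5 for WISP2 and 0.492 to 8.33 for WISP3. Of the 6 members, 3 had both IWP2 libraries above both DMSO libraries (CTGF, CYR61, WISP2) and 1 had both below (WISP1). Among all 28917 genes above 0 in any library these shares were 21.9% and 24.0%, and among those with a mean of 1 FPKM or more they were 27.9% and 31.9%, and nothing is read from the members' counts because the family was picked on this contrast.

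Across all genes, limma called 946 genes higher (6.75%) and 1183 lower (8.44%), 15.2% in all, with IWP2 among the 14022 with a mean of 1 FPKM or more, at a Benjamini-Hochberg adjusted p under 0.05. These counts depended on each library: 657 and 718 genes were called without DMSO replicate 1, 440 and 689 without DMSO replicate 2, 90 and 204 without IWP2 replicate 1, and 58 and 180 without IWP2 replicate 2. With genes of low values kept in, 118 and 263 genes were called. In bulk samples, fewer cells of a type and less RNA per cell cannot be told apart.

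**Figure D2:**
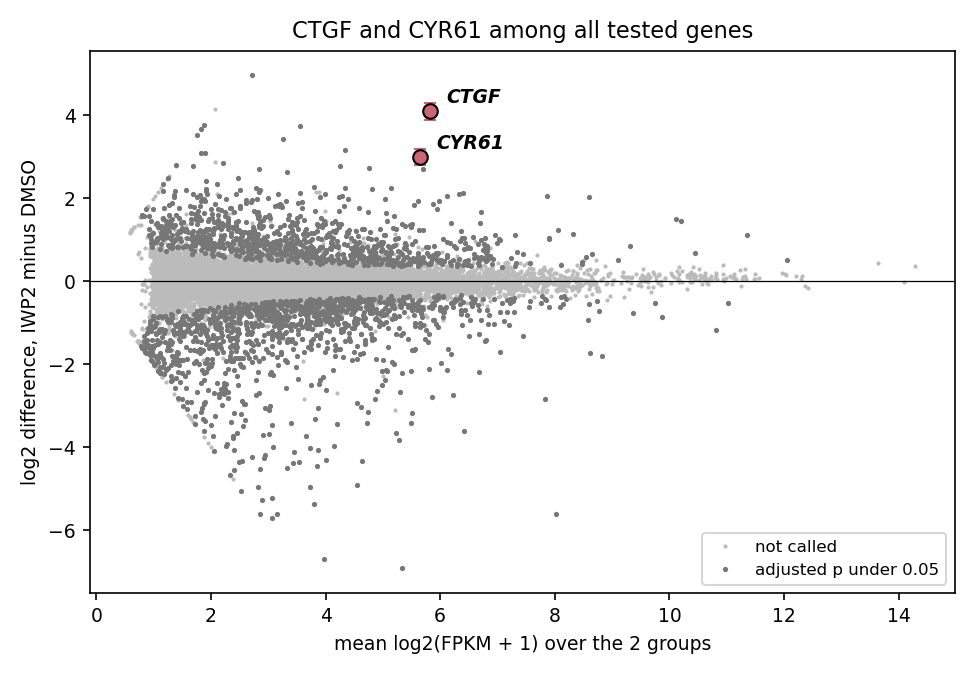
Log2 difference (IWP2 minus DMSO, of log2(FPKM + 1)) against the mean level over the groups for the 14022 genes with a mean of 1 FPKM or more, dark where the adjusted p was under 0.05, with CTGF and CYR61 as red points and their SE. CTGF at 4.10 and CYR61 at 2.99 lie at the upper edge of the cloud for their level.

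The treatment showed in the genes that respond to Wnt/β-catenin signaling, of which 9 of 12 fell and none rose with IWP2, against 8.44% lower and 6.75% higher among all genes tested. SP5, a transcription factor and direct Wnt target, was at 53.2 and 47.0 FPKM with DMSO and at 0.379 and 0.363 FPKM with IWP2. AXIN2, the feedback inhibitor used as a readout of the pathway, fell by 1.16 ± 0.12 (log2, adjusted p = 0.0048 in limma). On the log2 scale LEF1 fell by 3.14, NKD1 fell by 4.12, DKK1 fell by 4.24 and MIXL1, a primitive streak factor, fell by 3.60. SP5, LEF1, DKK1 and CDX1 passed the filter on the mean only through the DMSO libraries, which favors a fall among the genes tested. The median of the list was -1.48, against -0.017 for all genes tested. Without IWP2 replicate 1 or IWP2 replicate 2, 5 of the 12 genes were called lower.

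Markers of pluripotent cells were higher and those of mesoderm lower with IWP2. The summed level of POU5F1, NANOG, SOX2 and DNMT3B was 858 and 673 FPKM in DMSO replicates 1 and 2, and 2056 and 2035 FPKM with IWP2. Of these 4, 3 rose, and SOX2 went from 0.193 and 0.174 FPKM to 35.6 and 36.1 FPKM. T, MIXL1, EOMES, MESP1 and APLNR, markers of primitive streak and mesoderm, all fell (5 of 5, against 8.44% of all genes tested). T and MIXL1 are also among the Wnt response genes counted above. The sum of the 5 markers was 864 and 1075 FPKM in DMSO replicates 1 and 2, and 47.2 and 50.9 FPKM with IWP2. DMSO replicate 1, where CTGF and CYR61 were higher, thus had the higher pluripotent sum and the lower mesoderm sum. Within these sums DNMT3B (83.9 and 92.2 FPKM in DMSO replicates 1 and 2) and T (21.6 and 18.5 FPKM) went the other way. The definitive endoderm sum, lower with IWP2, was the higher in DMSO replicate 1, at 161 against 108 FPKM. With 2 DMSO libraries, nothing is read from these differences. Other cell types that make CTGF and CYR61 were looked for by their markers. The 5 markers of fibroblasts or stroma summed to 87.8 to 107 FPKM with DMSO and 67.5 to 68.6 FPKM with IWP2. Of these, COL1A1 was at 22.9 to 35.7 FPKM and COL1A2 at 43.8 to 67.5 FPKM across the libraries, and neither was called. LUM fell, from 3.10 and 2.80 FPKM to 0.108 and 0.178 FPKM, COL3A1 was at 0.487 FPKM or less and DCN at or near 0 in every library. LUM and MESP1 passed the filter on the mean only through the DMSO libraries, which favors a fall among the genes tested. The 3 endothelial markers summed to 1.58 to 4.08 FPKM, and the 2 neuroectodermal ones to at most 1.33 FPKM, in any library. The 4 amnion or trophoblast markers summed to 56.6 to 57.1 FPKM with DMSO and 74.5 to 80.3 FPKM with IWP2, where TFAP2A and KRT7 rose, GATA3 was not called and CGA was near 0. KRT7, like SOX2, passed the filter on the mean only through the IWP2 libraries. The 2 definitive endoderm markers summed to 108 to 161 FPKM with DMSO and 79.9 to 95.2 FPKM with IWP2. The calls of POU5F1, T, LUM and TFAP2A were lost without either IWP2 library, and that of KRT7 without IWP2 replicate 2. DNMT3B kept its call only without DMSO replicate 2, while SOX2 was called each time. With each library left out in turn, the differences ran from 1.30 to 1.69 for POU5F1 and 0.49 to 0.63 for DNMT3B. They ran from -1.05 to -0.84 for T, -1.84 to -1.73 for LUM, 1.00 to 1.43 for TFAP2A and 1.89 to 2.32 for KRT7. The part of these shifts in cell identity in the levels of CTGF and CYR61 was not tested.

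Genes known as targets of YAP/TAZ and TEAD, the pathway for which CTGF and CYR61 serve as the usual readout, differed in direction, and most were not called. Of 22 such genes other than the CCN members, 20 were tested, of which 4 rose (20.0%, against 6.75% of all genes), 2 fell (against 8.44%) and 14 were not called. Their median difference was 0.0057, against -0.017 for all genes tested. IGFBP3, an IGF-binding protein, was at 2.18 and 1.49 FPKM with DMSO and at 16.4 and 18.3 FPKM with IWP2, a rise of 2.70 ± 0.16 (adjusted p = 0.0011 in limma). The other 3 that rose were smaller in size: NUAK2, a kinase, by 0.95 ± 0.17, AXL, a receptor tyrosine kinase, by 0.91 ± 0.15 and FJX1 by 0.72 ± 0.15. GADD45A, a growth arrest and DNA damage gene, was at 94.4 and 66.8 FPKM with DMSO and at 24.5 FPKM in both IWP2 libraries, and fell by 1.66 ± 0.17 (adjusted p = 0.0048 in limma). AMOTL1, which binds YAP and holds it at junctions, fell by 0.62 ± 0.12.

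Other classic members of this list were not called. AMOTL2, the member with the highest level, was at 85.4 and 54.3 FPKM with DMSO and at 73.1 and 64.6 FPKM with IWP2, a difference of 0.012 ± 0.22. ANKRD1, which is often read out beside CTGF and CYR61 and is named here after its values were seen, was at 28.8 and 23.6 FPKM with DMSO and at 37.4 and 37.2 FPKM with IWP2. Its difference of 0.50 ± 0.12 missed the threshold (adjusted p = 0.0501 in limma). In the promoter table, 17 of the 22 genes had a window and 5 of these (29.4%) held GGAATG, among them NUAK2 and ANKRD1 with 2 copies each. IGFBP3 held none. Of the genes called, FJX1 and AMOTL1 lost their calls whichever library was left out, while IGFBP3 was called each time. NUAK2, AXL and GADD45A lost theirs without either IWP2 library, and NUAK2 and AXL also without DMSO replicate 2. With each library left out in turn, the differences ran from 2.53 to 2.88 for IGFBP3 and 0.75 to 1.16 for NUAK2. They ran from 0.75 to 1.08 for AXL and 0.58 to 0.87 for FJX1. For GADD45A they ran from -1.90 to -1.41 and for AMOTL1 from -0.74 to -0.51.

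The factors themselves differed in direction. Of the 10 genes for YAP, TAZ, TEAD, SRF and MRTF factors and VGLL4, 2 rose and 2 fell (20.0% each, against 6.75% and 8.44% of all genes), with a median of -0.018. TEAD1 was at 56.3 and 66.9 FPKM with DMSO and at 27.8 and 21.8 FPKM with IWP2, and fell by 1.28 ± 0.15 (adjusted p = 0.0070 in limma). TEAD2, the TEAD gene with the highest level, fell by 0.33 ± 0.075, a call that was lost with either rescaling of the libraries. TEAD3 rose by 0.51 ± 0.098 and MKL1, an MRTF co-activator, by 0.60 ± 0.10. YAP1 was at 59.8 FPKM in both DMSO libraries and at 52.2 and 50.0 FPKM with IWP2, and its difference of -0.22 ± 0.080 was not called. The calls of TEAD2 and TEAD3 were lost whichever library was left out. TEAD1 and MKL1 lost theirs without either IWP2 library, and MKL1 also without DMSO replicate 2. With each library left out in turn, the differences ran from -1.45 to -1.12 for TEAD1 and -0.34 to -0.33 for TEAD2. They ran from 0.44 to 0.57 for TEAD3 and 0.53 to 0.67 for MKL1.

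Cytoskeletal genes driven by SRF and MRTF, the other known route to CTGF and CYR61, were split between higher calls and no call. Of 14 such genes, all tested, 7 rose (50.0%, against 6.75% of all genes), 1 fell (7.14%, against 8.44%) and 6 were not called, with a median of 0.63. VCL, the focal adhesion protein vinculin, was at 56.3 and 50.4 FPKM with DMSO and at 126 and 122 FPKM with IWP2, a rise of 1.20 ± 0.091 (adjusted p = 0.0022 in limma). CALD1, the actin-binding caldesmon, rose by 1.11 ± 0.11 and TPM1, a tropomyosin, by 1.01 ± 0.082. TAGLN, the smooth muscle protein transgelin and the gene of the list with the highest level, was at 516 and 428 FPKM with DMSO and at 818 and 874 FPKM with IWP2, a rise of 0.85 ± 0.12. FHL1 was the gene that fell, by 0.86 ± 0.13. These rises were at most 1.20 on the log2 scale, where CTGF differed by 4.10 and CYR61 by 2.99. VCL, CALD1, TAGLN and FHL1 lost their calls without either IWP2 library, and TPM1 without IWP2 replicate 2. TAGLN and FHL1 also lost theirs without DMSO replicate 2. With each library left out in turn, the differences ran from 1.13 to 1.28 for VCL and 1.00 to 1.22 for CALD1. They ran from 0.96 to 1.07 for TPM1, 0.71 to 0.98 for TAGLN and -0.99 to -0.73 for FHL1.

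Genes that respond to TGF-β and SMAD factors, the growth factor input to CTGF, moved both ways. Of 11 such genes, 10 were tested, of which 2 rose and 2 fell (20.0% each, against 6.75% and 8.44% of all genes) and 6 were not called, with a median of -0.29. PMEPA1, a feedback inhibitor of the pathway, rose by 0.42 ± 0.092. LEFTY1, a secreted Nodal inhibitor, was at 97.0 and 57.1 FPKM with DMSO and at 13.6 and 13.3 FPKM with IWP2, and fell by 2.39 ± 0.25 (adjusted p = 0.0048 in limma). TGFB1I1, a focal adhesion adaptor, fell by 1.19 ± 0.13. The call of PMEPA1 was lost whichever library was left out, and those of LEFTY1 and TGFB1I1 without either IWP2 library. With each library left out in turn, the differences ran from 0.37 to 0.48 for PMEPA1. They ran from -2.76 to -2.01 for LEFTY1 and -1.30 to -1.08 for TGFB1I1.

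**Figure D3:**
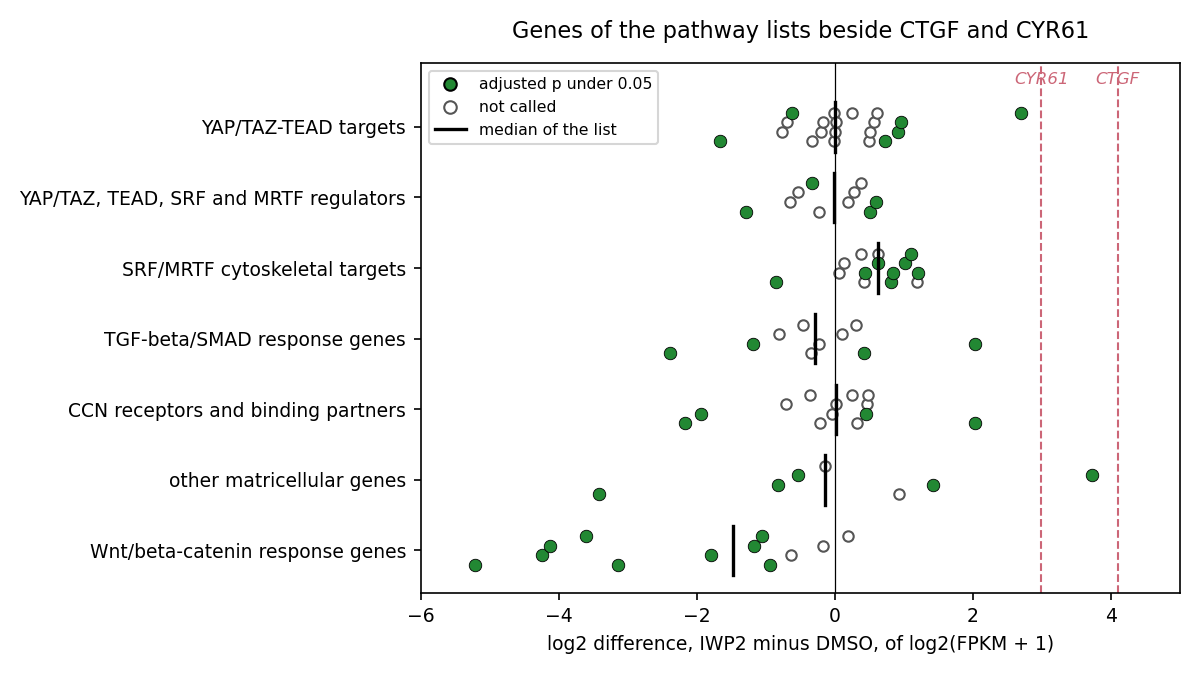
Log2 difference (IWP2 minus DMSO, of log2(FPKM + 1)) of each tested gene of the 7 lists, filled where the adjusted p was under 0.05, with the median of each list as a black bar and CTGF (4.10) and CYR61 (2.99) as dashed lines. No list gene rises as far as CTGF, and SPARCL1 at 3.73 is the list gene nearest to it.

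The receptors and partners that CCN proteins bind differed gene by gene. Of 16 such genes, 13 were tested, and 2 rose and 2 fell (15.4% each, against 6.75% and 8.44% of all genes), with a median of 0.021. FN1, the matrix protein fibronectin, was at 235 and 153 FPKM with DMSO and at 794 and 769 FPKM with IWP2, a rise of 2.04 ± 0.21 (adjusted p = 0.0045 in limma). ITGB1, the integrin β subunit shared by many receptors, rose by 0.45 ± 0.091. ITGA5, which pairs with it as the fibronectin receptor, was at 91.5 and 96.2 FPKM with DMSO and at 21.1 and 19.1 FPKM with IWP2, and fell by 2.17 ± 0.092 (adjusted p = 0.00042 in limma). ITGAV, the αV subunit, differed by 0.47 ± 0.11 and stayed just above the threshold, and its partner ITGB3 was at 0.536 FPKM or less in every library. LRP1, LRP6, SDC4, HSPG2 and ITGB5 were not called. The call of ITGB1 was lost whichever library was left out and that of FN1 without either IWP2 library, while ITGA5 was called each time. With each library left out in turn, the differences ran from 1.73 to 2.35 for FN1. They ran from 0.38 to 0.52 for ITGB1 and -2.24 to -2.10 for ITGA5.

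Other matricellular genes differed in both directions. Of 8 such genes, 7 were tested, of which 2 rose (28.6%, against 6.75% of all genes) and 3 fell (42.9%, against 8.44%), with a median of -0.14. SPARCL1 was at 2.14 and 2.34 FPKM with DMSO and at 43.0 and 41.2 FPKM with IWP2, a rise of 3.73 ± 0.10 (adjusted p = 0.00019 in limma). THBS1, thrombospondin 1, went from 3.29 and 2.24 FPKM to 9.54 and 8.44 FPKM, a rise of 1.42 ± 0.18. TNC, tenascin C, was at 103 and 70.7 FPKM with DMSO and at 7.24 and 6.94 FPKM with IWP2, and fell by 3.42 ± 0.19 (adjusted p = 0.00082 in limma). SPARC, the gene of the list with the highest level at 690 to 1034 FPKM, fell by 0.53 ± 0.083, and FBLN5, an elastic fiber protein, fell by 0.82 ± 0.15. The calls of SPARC and FBLN5 were lost whichever library was left out, and that of THBS1 without either IWP2 library. With each library left out in turn, the differences ran from 3.69 to 3.78 for SPARCL1 and 1.22 to 1.62 for THBS1. They ran from -3.69 to -3.15 for TNC, -0.58 to -0.49 for SPARC and -0.89 to -0.75 for FBLN5.

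Genes next to CTGF and CYR61 on the chromosome were also read out. The window of 500 kb to either side was chosen after values had been seen. Around CYR61, 6 of 19 rows were tested, and 3 rose and none fell, where 6.75% of all genes tested were called higher and 8.44% lower. The nearest, DDAH1, an enzyme that breaks down methylated arginine, lay on the opposite strand at chr1:85318481-85578363, so that the 2 genes start 2398 bases apart and run away from each other. DDAH1 was at 3.21 and 2.72 FPKM with DMSO and at 13.4 and 16.6 FPKM with IWP2, a rise of 2.01 ± 0.15 (adjusted p = 0.0022 in limma) that was called without either DMSO library or IWP2 replicate 1 and missed the threshold without IWP2 replicate 2. ZNHIT6, on the other side of CYR61, differed by 0.067 ± 0.11, and BCL10 and C1orf52 were not called either. SYDE2 and AL603750.1, at 380 and 427 kb, rose by 0.72 ± 0.16 and 0.98 ± 0.22. AL603750.1 was at 0.538 and 0.270 FPKM with DMSO and at 1.52 and 2.02 FPKM with IWP2. It thus passed the filter on the mean only through the IWP2 libraries, which favors a rise among the genes tested.

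Around CTGF, 7 of 23 rows were tested, and 2 rose and none fell, against the same 6.75% and 8.44%. The antisense RNA AL133346.1 starts inside CTGF on the opposite strand, at chr6:131950946-132077393, and was at 0.919 and 0.903 FPKM with DMSO and at 1.33 and 1.02 FPKM with IWP2. Its difference of 0.19 ± 0.20 was not called, although the sources used here do not say whether strand was used in counting, and without strand the reads of the overlap cannot be told apart. The lincRNA AL117378.1, at 27.6 kb, was at 5.04 and 5.47 FPKM with DMSO and at 11.9 and 10.6 FPKM with IWP2, a rise of 0.97 ± 0.12 (adjusted p = 0.0082 in limma). ENPP1, the nearest protein-coding gene at 53.0 kb, was at 9.11 and 14.3 FPKM with DMSO and at 6.07 and 5.83 FPKM with IWP2, and its difference of -0.84 ± 0.21 missed the threshold (adjusted p = 0.0596 in limma). MOXD1, at 345 kb, rose by 0.78 ± 0.18. It was at 0.606 and 0.700 FPKM with DMSO and at 1.79 and 1.90 FPKM with IWP2. MOXD1 thus passed the filter on the mean only through the IWP2 libraries, which favors a rise among the genes tested. The calls of MOXD1, SYDE2 and AL603750.1 were each lost without any one of the 4 libraries, and that of AL117378.1 without either IWP2 library.

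**Figure D4:**
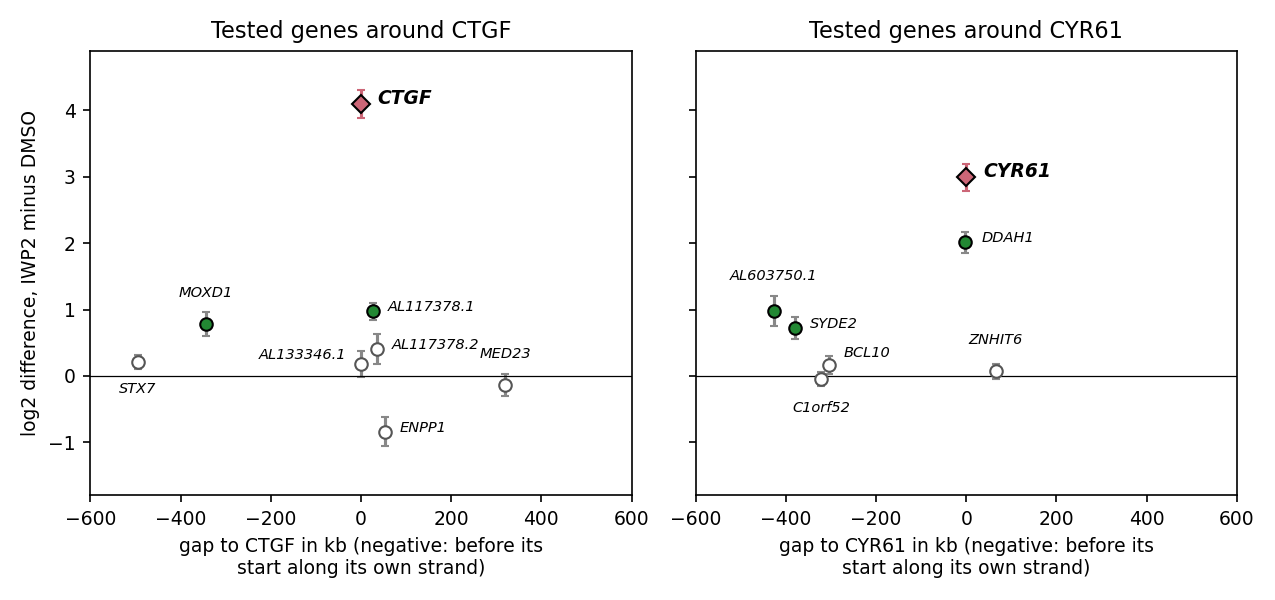
Log2 difference with SE of the tested genes within 500 kb of CTGF (left) and CYR61 (right), against the gap in kb along the strand of each member, filled where the adjusted p was under 0.05 and with the member as a red diamond. DDAH1, at 2.01, stands next to CYR61, while the genes around CTGF lie between -0.84 and 0.97.

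The genes whose pattern over the 4 libraries was most like that of each member were found by the Euclidean distance between values of log2(FPKM + 1) centred on the mean of each gene. Nearest to CYR61 was APELA, a peptide ligand of the apelin receptor, at a distance of 0.227, with 7.86 and 4.17 FPKM with DMSO and 59.4 and 60.6 FPKM with IWP2. It was followed by the long noncoding RNA LNCPRESS1 (0.272), IGFBP3 (0.337), AP002856.2 (0.40) and SCNN1A, a sodium channel subunit (0.441). LNCPRESS1 and AP002856.2 passed the filter on the mean only through the IWP2 libraries. IGFBP3 is also on the list of YAP/TAZ targets. Its difference of 2.70 was close to the 2.99 of CYR61, and such closeness in size mostly sets this distance, so nothing is read from the overlap. APELA, like CYR61, was higher in DMSO replicate 1 than in replicate 2.

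Nearest to CTGF were MTATP8P2 (0.540), a row named U3 (0.608), SPARCL1 (0.629), TRBC2 (0.712) and MTATP8P1 (0.724). MTATP8P2, MTATP8P1 and U3 were listed at 0 in both DMSO libraries, and they are copies of a mitochondrial gene or of a small RNA family whose fragments may be split between near-identical rows, so that their values are uncertain. CTGF and CYR61 were 1.11 apart, which put CYR61 at place 9 among the genes nearest to CTGF and CTGF at place 59 among those nearest to CYR61. With 4 libraries in 2 groups, this measure mostly ranks genes by the size of their difference between the groups.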

How the data were processed

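RNA of 4 libraries of H1 cells at day 2 (2 DMSO, 2 IWP2) was sequenced from Illumina TruSeq libraries. The deposited table gives 1 FPKM value per gene and library. The submitters' processing notes name BWA, Bowtie, RSEM and hg19 without roles, and versions and strand handling are not given in the sources used here. The intervals of 97.3% of the rows found in GENCODE 29 equalled its GRCh38 intervals with starts counted from 0, so coordinates are given as GRCh38, counted from 1. FPKM hold no counts: depth was estimated from single-exon genes of at least 1500 bases, by a line through 182 to 200 genes per library taken as 1 fragment. Of the 475 to 504 low values per library, 95.0% to 96.0% fell within 0.1 of whole fragments. These values include the genes that set the line, so part of this share was fixed in advance. Genes with a mean of 1 FPKM or more (14022) were tested on log2(FPKM + 1) with limma 3.58.1 in R 4.3.3 (trend, two-sided, Benjamini-Hochberg, threshold 0.05), a script tested on simulated data. A repeated symbol was read from its row with the highest mean. The members and lists were chosen with earlier results of these data known. From each list, genes called and past 1 on the log2 scale (at most 5 per direction) and the gene with the highest level were named by rule, with the 5 genes nearest in pattern to CTGF and to CYR61, and others are named after their values were seen. The values of 2 list genes are not reported here. The 2 columns without IWP2 were tied to the DMSO group and not to a given sample, and they keep the number in their name. The numbers in the titles do not show paired cultures. Alternatives were pseudocounts of 0.1 and 0.5, other filters, 2 rescalings, a replicate block and leaving out each library. Plots were drawn with matplotlib 3.10.9.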

Additional observations from a re-analysis of the deposited data

How the results depend on the processing

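CTGF and CYR61 kept their difference within the spread of their replicates under every alternative that left out no library. The 4 low members depended on the pseudocount: with 0.1 the differences were 0.38 for NOV, -1.46 for WISP1, 0.47 for WISP2 and 0.14 for WISP3, and with 0.5 they were -0.47 for WISP1 and 0.12 for WISP2. Without each library in turn the log2 differences ran from 3.80 to 4.40 for CTGF, 2.70 to 3.28 for CYR61, 0.019 to 0.16 for NOV, -0.27 to -0.24 for WISP1, 0.032 to 0.095 for WISP2 and -0.058 to 0.13 for WISP3. With no filter on low values, 118 genes were called higher and 263 lower, and the list counts of higher and lower calls were 1 and 0 for YAP/TAZ-TEAD targets, 0 and 0 for their factors, 2 and 0 for SRF/MRTF targets, 0 and 0 for TGF-β response genes, 0 and 1 for receptors and 1 and 1 for matricellular genes. With a mean of 5 FPKM or more, 1 receptor gene was called lower, as fewer genes were then tested. Either rescaling and the replicate block each left 1 lower call among the YAP/TAZ and TEAD factors.

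Without each library in turn, 58 to 657 genes were called higher and 180 to 718 lower. The list ranges of higher and lower calls were 1 to 4 and 0 to 1 for YAP/TAZ-TEAD targets, 0 to 1 and 0 to 1 for their factors, 0 to 7 and 0 to 1 for SRF/MRTF targets, 0 to 1 and 0 to 3 for TGF-β response genes, 0 to 1 and 1 to 2 for receptors, 1 to 3 and 1 to 2 for matricellular genes and 0 and 5 to 9 for Wnt response genes. A group then holds 1 library, which is assumed to vary like the other group. Such counts can include genes that were not called with all libraries kept. None of the called list genes changed sign under any alternative run. The titles share replicate numbers, but deviations of same-numbered libraries correlated at 0.152 over genes with 2 pairs only, so that the numbers are not taken as pairs. With the replicate block, 862 genes were called higher and 1065 lower, and no other list count moved by over 1.5 times.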
